A study of Mus musculus with 2 samples.

Results

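The genes described here encode pre-mRNA splicing factors. They are the 68 of 20661 protein-coding genes on mouse chromosomes 1 to 19 (RefSeq, GRCm38.p6, the build also called mm10) whose symbol starts with Srsf, Snrp, Sf3a, Sf3b, Prpf, Hnrnp or U2af. The families hold 20 Hnrnp, 13 Prpf, 12 Snrp, 11 Srsf, 6 Sf3b, 3 Sf3a and 3 U2af genes. Their values come from CUT&Tag with an antibody to PHLPP1, a protein phosphatase known for acting on the kinase AKT. In this assay the antibody directs a transposase to chromatin, and DNA beside the bound sites is sequenced. Mouse primary bone marrow-derived macrophages were grown in M-CSF at 20 ng/ml. One library came from untreated cells. The other came from cells that received IL-4 (20 ng/ml, 4 h), the cytokine of alternative activation. The design text and the CUT&Tag protocol name wild-type cells, the treatment protocol also names Phlpp1-deficient ones, and the sample characteristics give no genotype. No replicate, control antibody, input or PHLPP1-deficient library was analysed here. All differences between the lists are therefore descriptions of 1 library each, with no test.

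Splicing removes introns from pre-mRNA. The Sm proteins, encoded by most Snrp genes, form the core of the small nuclear ribonucleoproteins (snRNPs) that recognise splice sites. U2AF and the SF3A and SF3B complexes bring the U2 snRNP to the branch site, and many PRPF proteins belong to the snRNPs and complexes that make the spliceosome catalytic. SR proteins (Srsf genes) mostly promote the use of nearby splice sites, and hnRNP proteins bind pre-mRNA and often act against it. Most of these genes are expressed in nearly all cells, macrophages included. The data do not measure splicing or expression.

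The untreated list held 149349 peaks and the IL-4 list 240661. The strength of a peak is given as the number of fragments at its summit, computed from the fold and −log10 p that the authors deposited for it. Exact Poisson 95% intervals are given for some of these numbers and cover counting error only. They may be too narrow, since PCR-amplified fragments are not independent molecules. The Wilson intervals of shares treat the genes of a set as independent draws. Neither kind covers variation between libraries. The weakest listed peaks had 4 fragments without IL-4 and 3 with it, and the lowest local background was 1.46 times as high in the untreated library. Of 10 macrophage marker genes, 6 had an IL-4 gene-end peak and 1 an untreated one, and Adgre1, Csf1r, Itgam and Lyz2 had none in either. For markers of other cells, the IL-4 and untreated counts were 2 and 0 of 6 for neutrophils, 2 and 3 of 5 for T cells, 2 and 3 of 5 for B cells, 1 and 1 of 5 for stromal cells and 1 and 0 of 4 for erythroid cells. With q held to at most 0.05, Cd68 and Tyrobp were the only markers of these 6 lists with an IL-4 peak. This was 20% of the macrophage markers, near the 19.2% of all protein-coding genes. Over all listed peaks the macrophage shares were 60% with IL-4 and 10% without, against 51.4% and 24.0% of all genes.

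A gene-end peak is one whose summit lies within 1 kb of an annotated end of the gene, on either side. Splicing factor genes had such peaks mainly in the IL-4 list. It held a gene-end peak for 45 of 68 members (66.2%, Wilson 95% interval 54.3 to 76.3), against 51.4% of all protein-coding genes. The untreated list held one for 10 of 68 (14.7%, 8.19 to 25.0), against 24.0% of all genes. The members' share was thus above that of all genes with IL-4 and below it without, although the untreated interval includes 24.0%. Of the members, 39 were marked with IL-4 only (36.9% of all genes), 6 under both conditions (14.6%), 4 without IL-4 only (9.39%) and 19 not at all (39.2%).

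With stronger peaks the members stayed above all genes in the IL-4 list at a q of 0.05, and few members passed the strictest threshold. Among peaks with q of at most 0.05, 28 of 68 members had one at a gene end with IL-4 (41.2%, 30.3 to 53.0), against 19.2% of all genes. The untreated list had such a peak for 2 of 68, against 4.25%, and 26 of 68 had one in the IL-4 list only, against 17.7%. Hnrnpul2 was the single member past a −log10 q of 5 in the IL-4 list, 1.47% of the 68 against 2.77% of all genes. No member passed it in the untreated list, where 0.0581% of all genes did. Counting only peaks of at least 4 fragments, the lowest number in the untreated list, the IL-4 list had 42 of 68 members, against 43.4% of all genes.

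**Figure D1:**
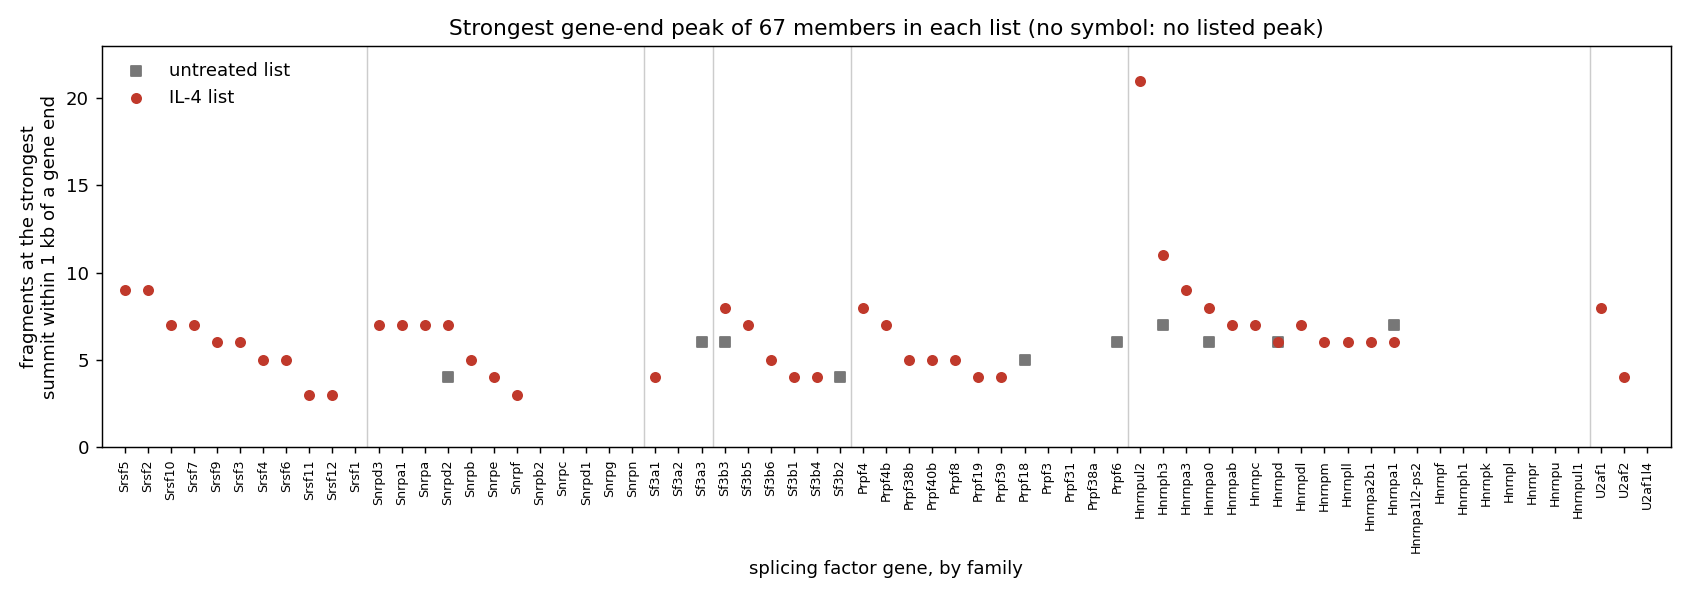
Fragments at the strongest gene-end summit of 67 of the 68 members (vertical axis, linear) in the untreated list (grey squares) and the IL-4 list (red circles), by family along the horizontal axis. Hnrnpul2 stands at 21 fragments, the other IL-4 values lie between 3 and 11, and the untreated values between 4 and 7. A gene without a symbol had no listed gene-end peak.

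The gene-end peaks of the members were of moderate strength. The strongest gene-end summit of a member had a median of 6 fragments in the IL-4 list (range 3 to 21), against 5 for all genes with one. In the untreated list the median was 6 (range 4 to 7), against 5. Their median −log10 q was 1.84 with IL-4 and 1.11 without. In the IL-4 list 29 of 45 strongest summits (64.4%) were within 300 bp of the gene end, against 48.5% for all genes. For 17 of these 45 members another protein-coding gene also had an end within 1 kb of the summit, so the peak cannot be assigned to 1 gene. At the edge of the window, Srsf11 was counted with an IL-4 summit of 3 fragments 969 bp from its end. Prpf4b had a further IL-4 summit of 9 fragments 1177 bp inside the gene, and Hnrnpk one of 8 fragments 1202 bp inside, which were not counted.

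Some members have annotated starts inside their outer ends, so summits were also counted around every start in the RefSeq promoter table. This table holds 80 starts of 59 members, and 20084 starts of 16456 protein-coding genes. This count was added after the data were seen. The IL-4 list had a summit within 1 kb of a start for 40 of 59 members (67.8%, 55.1 to 78.3), against 45.3% of all genes. The untreated list had one for 9 of 59 (15.3%, 8.24 to 26.5), against 16.5%. With q of at most 0.05 the IL-4 list had 29 of 59 (49.2%, 36.8 to 61.6), against 19.1%, and the untreated list 3 of 59, against 3.18%. Among members with a single start in the table, 25 of 46 had an IL-4 summit at that q (54.3%), against 17.6% of all such genes. Past a −log10 q of 5 the IL-4 list had 2 of 59, Hnrnpl and Hnrnpf (3.39%), against 3.0%.

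The strongest of these promoter peaks with a summit in the 250 bases before a start are shown as sequence. Of these 6, 5 belong to hnRNP genes, a share that depends on this limit. Srsf5 (−log10 q 4.35) and Srsf2 (3.50) were above Prpf4 (3.40), but their summits lay outside these bases. Hnrnpul2, with a stronger peak, is not in the promoter table. Each run is the 250 bases before the annotated start (RefSeq, GRCm38.p6), read 5′ to 3′ on the gene's strand, for the 6 starts with the highest IL-4 −log10 q among those whose summit lies inside these bases. Capitals mark matches on either strand to the GC box (GGGCGG), the CCAAT box, the ETS motif (CCGGAAG) and the E box (CACGTG).
Hnrnpl, chr7:28810640-28810889, plus strand: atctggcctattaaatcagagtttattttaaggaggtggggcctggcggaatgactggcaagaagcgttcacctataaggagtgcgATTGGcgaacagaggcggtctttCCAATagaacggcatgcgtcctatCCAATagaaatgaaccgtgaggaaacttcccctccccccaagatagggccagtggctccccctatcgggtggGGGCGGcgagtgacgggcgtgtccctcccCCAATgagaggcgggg
Hnrnpf, chr6:117906532-117906781, plus strand: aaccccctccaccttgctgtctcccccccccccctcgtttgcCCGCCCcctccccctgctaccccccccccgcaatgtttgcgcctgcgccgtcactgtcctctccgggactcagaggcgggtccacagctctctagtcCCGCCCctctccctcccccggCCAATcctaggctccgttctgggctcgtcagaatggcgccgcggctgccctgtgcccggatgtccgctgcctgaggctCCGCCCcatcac
Hnrnph3, chr10:63023850-63024099, minus strand: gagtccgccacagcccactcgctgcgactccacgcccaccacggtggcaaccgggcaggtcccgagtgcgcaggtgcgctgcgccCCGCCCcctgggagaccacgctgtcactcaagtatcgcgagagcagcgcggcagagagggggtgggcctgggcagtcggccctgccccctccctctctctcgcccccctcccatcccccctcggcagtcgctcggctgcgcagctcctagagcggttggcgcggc
Hnrnpul1, chr7:25754760-25755009, minus strand: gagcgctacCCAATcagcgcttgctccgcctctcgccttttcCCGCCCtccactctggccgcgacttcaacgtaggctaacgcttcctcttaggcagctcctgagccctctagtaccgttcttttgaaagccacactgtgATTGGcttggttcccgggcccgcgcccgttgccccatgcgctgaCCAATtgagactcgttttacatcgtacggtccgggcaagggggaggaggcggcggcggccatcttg
Hnrnpa3, chr2:75659009-75659258, plus strand: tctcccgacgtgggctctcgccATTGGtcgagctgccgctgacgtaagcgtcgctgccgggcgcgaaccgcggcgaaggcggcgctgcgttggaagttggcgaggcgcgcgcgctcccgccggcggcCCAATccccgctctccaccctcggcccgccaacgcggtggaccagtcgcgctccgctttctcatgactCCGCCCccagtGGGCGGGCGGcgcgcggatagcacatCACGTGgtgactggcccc
Prpf4, chr4:62408533-62408782, plus strand: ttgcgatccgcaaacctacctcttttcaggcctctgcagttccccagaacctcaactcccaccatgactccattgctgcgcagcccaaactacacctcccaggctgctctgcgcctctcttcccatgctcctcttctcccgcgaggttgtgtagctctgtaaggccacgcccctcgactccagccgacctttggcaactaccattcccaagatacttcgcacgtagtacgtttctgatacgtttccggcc
Prpf4 held none of the 4 motifs in these 250 bases, and no run held the ETS motif. Hnrnpl had 4 CCAAT matches and 1 GC box, and its IL-4 summit lay 174 bases before the start. Hnrnpf had 3 GC boxes and 1 CCAAT match, and its summit lay 14 bases before the start. Hnrnpa3 had the single E box of the set with 2 CCAAT matches and 3 GC boxes, and its summit lay 169 bases before the start. Hnrnph3 had 1 GC box, and Hnrnpul1 3 CCAAT matches and 1 GC box. Their summits lay 133 and 239 bases before the start, and that of Prpf4 lay 198 bases before it. A match describes the letters only and is not evidence of binding.

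The hnRNP genes were the family with the most complete IL-4 signal at starts. At a q of at most 0.05, 16 of the 18 Hnrnp genes in the promoter table had an IL-4 summit within 1 kb of a start (88.9%, Wilson 67.2 to 96.9), against 19.1% of all genes. The other 2 were Hnrnpr, an RNA-binding protein gene, and Hnrnpa1l2-ps2, which carries the symbol of a pseudogene and is listed as protein-coding. In the untreated list 3 of the 18 passed this q (16.7%, 5.84 to 39.2), against 3.18% of all genes. Of the 14 Hnrnp genes with a single start in the table, 13 had such an IL-4 summit (92.9%), against 17.6% of all such genes. Counted at outer gene ends instead, 4 of 20 Hnrnp genes had an untreated peak (20%), against 24.0% of all genes. An IL-4 peak was listed there for 12 of 20 (60%, 38.7 to 78.1), near the 51.4% of all genes. All 12 had a q of at most 0.05, and at that q the share of all genes was 19.2%. Of these 12, Hnrnpul2 and Hnrnpll are not in the promoter table. Hnrnpf, Hnrnph1, Hnrnpk, Hnrnpl, Hnrnpu and Hnrnpul1 had an IL-4 summit at an internal start and none at an outer end.

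Hnrnpul2, encoding a protein related to the nuclear scaffold protein hnRNP U, had the strongest gene-end peak of all members. This peak (chr19:8819476-8820176) was listed only with IL-4. It held 21 fragments, 11.4-fold over the local background, and its −log10 q was 16.2. Its summit is 280 bp inside the gene and also within 1 kb of an end of Ttc9c. Hnrnpl, which encodes a regulator of exon choice that binds CA repeats, had the next strongest peak, with 20 fragments (12.2 to 30.9) and a fold of 9.22 at −log10 q 12.5, near an internal start. That peak (chr7:28810119-28811009) overlapped no untreated peak. Hnrnpf, encoding a protein that binds runs of G, had 13 IL-4 fragments (6.92 to 22.2) and overlapped an untreated peak of 4 (1.09 to 10.2). Both lists therefore marked this Hnrnpf start, on chromosome 6 near 117906782, at −log10 q 6.59 and 0.408. The counting intervals of the 2 libraries overlap at Hnrnpf, but they are not adjusted for depth or background. The folds there were 7.04 with IL-4 and 2.58 without.

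Other Hnrnp genes had peaks in both lists. Hnrnph3, related to the G-run binder hnRNP H, had 11 fragments with IL-4 and 7 without at its start, where the end of Pbld2 also lies. Hnrnpa0, whose protein binds AU-rich mRNA, had an IL-4 peak of 8 fragments 236 bp outside its start that overlapped no untreated peak. Further out, an IL-4 peak of 5 fragments overlapped its untreated peak of 6. Hnrnpd, encoding the mRNA decay factor AUF1, had 6 in each list, at a fold of 4.26 with IL-4 and 3.62 without. Hnrnpa1, a classical repressor of exon inclusion, had 6 with IL-4 and 7 without, at a start that lies within 1 kb of Cbx5. In these overlapping peaks of the 4 genes the fragment numbers differed by at most 4, and the IL-4 number was the higher one only in Hnrnph3. These numbers were not adjusted for the depth or background of the 2 libraries. The fold over local background was higher with IL-4 in Hnrnph3 (5.95, against 4.13) and Hnrnpd. It was lower with IL-4 in Hnrnpa0 (3.11, against 3.62) and Hnrnpa1 (3.76, against 4.13). Hnrnpul1 had 10 IL-4 fragments and 8 untreated ones near its internal start, at −log10 q 3.64 and 2.08. The untreated library thus had listed peaks at the starts of Hnrnpa0, Hnrnpa1, Hnrnpd, Hnrnpf, Hnrnph3 and Hnrnpul1, 6 of the 18 Hnrnp genes in the table. This share was 33.3% (Wilson 16.3 to 56.3), against 16.5% of all genes, so it was above that of all genes without IL-4 too.

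The remaining Hnrnp starts with a peak, that of Hnrnpl among them, were listed with IL-4 only. Hnrnpa3 had 9 fragments, Hnrnpk, whose protein binds C-rich RNA, had 8, and Hnrnph1, Hnrnpab, Hnrnpdl and Hnrnpc, which encodes a binder of U tracts, had 7 each. Hnrnpu, encoding a nuclear scaffold protein, and Hnrnpm and Hnrnpa2b1 had 6 each. Hnrnpa2b1 shares its peak with Cbx3, which lies head to head with it. Ends of Rpgrip1, Enoph1 and Marchf2 also lie within 1 kb of the summits of Hnrnpc, Hnrnpdl and Hnrnpm. The 16 IL-4 values thus lay between 6 and 20 fragments.

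The SR protein genes were marked at their ends with IL-4 and in no case without it. Of 11 Srsf genes, 10 had an IL-4 gene-end peak (90.9%, Wilson 62.3 to 98.4), against 51.4% of all genes. None had an untreated one, and the upper Wilson bound of 25.9% for 0 of 11 includes the 24.0% of all genes. The IL-4 count was 6 of 11 at a q of at most 0.05 (54.5%, against 19.2%). With at least 4 fragments it was 8 of 11 (72.7%, against 43.4%). Srsf5 led the family with 9 fragments (chr12:80945747-80946094, −log10 q 4.35), 516 bp inside the gene. Srsf2, encoding the speckle protein SC35, had 9 fragments, 91 bp inside its start, at a −log10 q of 3.50. Srsf10 and Srsf7, the latter also an mRNA export factor and sharing its start with Gemin6, had 7 each, and Srsf3 and Srsf9 had 6 each. Srsf4 and Srsf6 had 5, and Srsf11 and Srsf12 had 3, the lowest number listed. The only gene-end summit of Srsf11 and the strongest of Srsf4 lay near the 3′ end. Srsf4 also had summits of 4 fragments 146 and 951 bp inside its start. Srsf1, the founding SR protein gene, had no peak in either list at its ends or in its body.

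The Snrp genes were mixed. Of 12, 7 had an IL-4 gene-end peak (58.3%, against 51.4% of all genes) and 4 passed a q of 0.05 (33.3%, against 19.2%). One untreated peak was listed, at Snrpd2. Snrpd3, encoding a Sm core protein, had 7 fragments at a −log10 q of 2.06, 852 bp outside its start and near Gucd1. Snrpa1 and Snrpa, encoding proteins of the U2 and U1 snRNPs, also had 7 each, 388 bp outside and 94 bp inside the gene. Snrpd2, another Sm gene, had 7 fragments 121 bp outside its start with IL-4 and 4 fragments beyond its 3′ end without, so its 2 peaks do not mark the same site. Snrpb had 5, Snrpe 4 and Snrpf 3, the last near its 3′ end, all Sm genes listed with IL-4 only. Snrpc, Snrpd1 and Snrpn had no gene-end peak in either list, and Snrpb2 and Snrpg had none at all, ends or body.

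Among genes of branch site recognition, Sf3b3, Sf3b5 and U2af1 had IL-4 gene-end peaks with q of at most 0.05. Sf3b3, encoding a large subunit of SF3B, had 8 fragments with IL-4 and 6 without at its start, in overlapping peaks at −log10 q 3.40 and 1.11. Cog4 has an end there too. Sf3b5 had 7 IL-4 fragments inside a peak that covers most of this short gene, and Sf3b6 had 5. Sf3b1, whose protein contacts the branch site, and Sf3b4 had 4 each. Sf3b2 had an untreated peak of 4 fragments and no IL-4 one. U2af1, which reads the AG of the 3′ splice site, had 8 IL-4 fragments 465 bp inside its 3′ end at a −log10 q of 3.40, and U2af2, which binds the polypyrimidine tract, had 4. U2af2 had a further IL-4 summit of 9 fragments 1289 bp inside the gene, beyond the window. In the Sf3a family Sf3a3 had an untreated peak of 6 fragments near its 3′ end, Sf3a1 an IL-4 peak of 4 near its 3′ end, and Sf3a2 had none, nor had U2af1l4. With 3 to 6 genes per family, these counts allow no ranking.

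The Prpf genes had IL-4 shares near those of all genes. Of 13, 8 had an IL-4 gene-end peak (61.5%, 35.5 to 82.3, against 51.4%) and 3 passed a q of 0.05 (23.1%, against 19.2%). In the untreated list 2 of 13 had one, against 24.0%, and none had both. Prpf4, of the tri-snRNP, had 8 fragments at a start shared with Cdc26, and Prpf4b, a kinase gene, had 7. Prpf8, encoding the protein at the catalytic centre, Prpf38b and Prpf40b had 5 each, and Prpf19, of the ubiquitin ligase complex of the spliceosome, and Prpf39 had 4 each. Prpf18, encoding a factor of the second catalytic step, and Prpf6 had untreated peaks of 5 and 6 fragments and no IL-4 one. Prpf3, Prpf31 and Prpf38a had gene-end peaks in neither list.

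**Figure D2:**
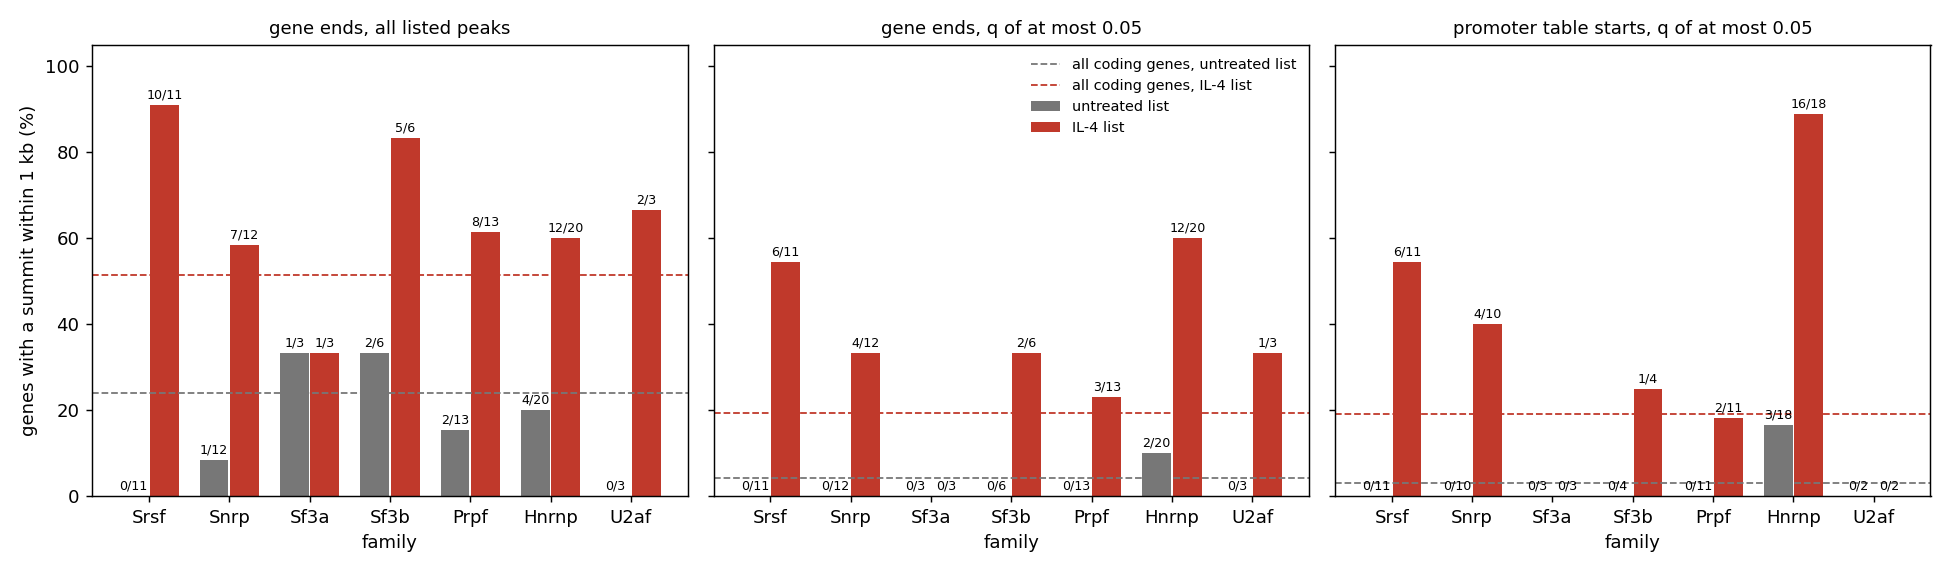
Share of genes in each family with a summit within 1 kb (vertical axis, percent, from 0), for gene ends over all listed peaks (left), gene ends at a q of at most 0.05 (middle) and any start of the promoter table at that q (right). Bars give the untreated (grey) and IL-4 (red) lists with counts above them, and dashed lines give all protein-coding genes. Hnrnp reaches 16 of 18 at the right, and Srsf 10 of 11 at the left with 0 of 11 untreated.

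Between the families, the order depended on the measure. Among the 4 families of over 10 genes, Srsf had the highest IL-4 share at gene ends over all listed peaks, and Hnrnp the highest at starts and a q of at most 0.05, with 16 of 18. At starts the other counts were 6 of 11 for Srsf (54.5%, 28.0 to 78.7), 4 of 10 for Snrp (40%, 16.8 to 68.7) and 2 of 11 for Prpf (18.2%, 5.14 to 47.7). The smaller families had 1 of 4 for Sf3b, 0 of 3 for Sf3a and 0 of 2 for U2af. At this q the Wilson interval of Hnrnp overlaps those of Srsf and Snrp and not that of Prpf. Over all listed peaks at starts, Hnrnp had 16 of 18 (67.2 to 96.9) and Srsf 9 of 11 (52.3 to 94.9). Snrp had 5 of 10 (23.7 to 76.3) and Prpf 7 of 11 (35.4 to 84.8), and these 4 intervals overlap. The genes of a family are not replicates, so the intervals give no test. The promoters of the families also differed in base composition. Median GC was 66.3% over the 27 Hnrnp starts and 69.0% over the 14 Srsf starts, against 53.5% for Snrp, 57.8% for Prpf and 57.0% for all protein-coding genes. Over all genes, starts with an IL-4 summit within 1 kb had a median GC of 61.0% and starts without had 53.0%. The part of base composition in the family difference was not tested.

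The IL-4 summits of splicing factor genes lay at starts rather than at 3′ ends. Strand was known for 59 members, and 58 of these were longer than 2 kb, so that start and 3′ end could be told apart. The IL-4 list had a summit within 1 kb of the start for 34 of 58 (58.6%, 45.8 to 70.4), against 44.4% of all genes, and of the 3′ end for 9 of 58 (15.5%, 8.38 to 26.9), against 19.9%. The same counts with q of at most 0.05 were 23 of 58, against 19.2%, and 1 of 58, against 3.06%. That 1 gene is U2af1. The untreated list had 6 of 58 at starts, against 15.2%, and 3 of 58 at 3′ ends, against 11.5%. In the 500 bp centred on the start, the bins before and after it held 20.7 and 27.6 IL-4 summits per 100 members, against 12.3 and 13.4 per 100 genes.

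**Figure D3:**
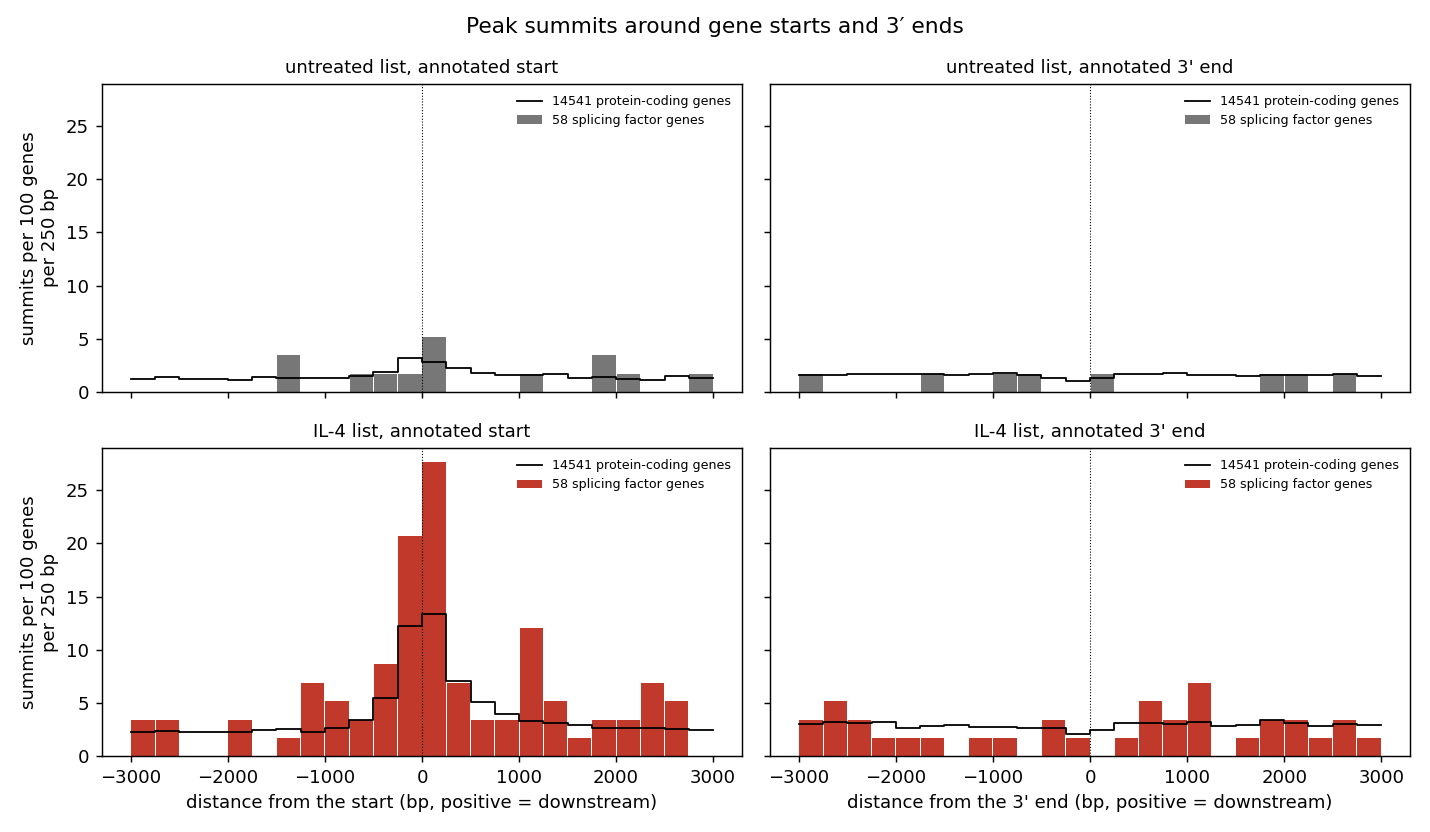
Summits per 100 genes in bins of 250 bp (vertical axis) by distance from the annotated start (left) or 3′ end (right) in bp, in the untreated (top) and IL-4 (bottom) lists. Bars are the 58 members with known strand and the black line is the 14541 protein-coding genes treated the same way. The IL-4 bars at the start reach 27.6 per 100 genes, and no bar of the untreated list or of the 3′ ends reaches 7.

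Over whole gene bodies, summits near the ends included, the members had a lower summit density than all genes in the untreated list and a similar one in the IL-4 list. The 68 genes span 1588 kb in all and held 161 IL-4 summits, or 10.1 per 100 kb (exact Poisson 95% interval 8.63 to 11.8), against 10.8 for all protein-coding genes. They held 51 untreated summits, or 3.21 per 100 kb (2.39 to 4.22), against 6.57. Of these, 127 of the IL-4 and 46 of the untreated summits lay over 1 kb from both ends. The others are also among the gene-end peaks above, so the 2 counts are not independent. The ratio of the IL-4 to the untreated density was 3.16 for the members and 1.64 for all genes. Snrpn, whose Sm protein gene lies in an imprinted locus and is annotated over 468 kb, holds 30 of the IL-4 and 16 of the untreated summits. Without it the densities were 11.7 and 3.13. With at least 4 fragments required in both lists, the ratio was 2.0 for the members and 1.13 for all genes. The members are shorter than other genes, with a median length of 13.1 kb against 17.5 kb, and the part of gene length in these densities was not tested.

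Most body summits were weak. Away from the outer ends the 5 strongest IL-4 summits lay in Hnrnpl, Hnrnpf, Hnrnpul1, Prpf4b and U2af2, with 20, 13, 10, 9 and 9 fragments. The first 4 are within 1 kb of an internal start in the promoter table, and U2af2 was not placed on a strand. In the untreated list the strongest body summits away from the ends had 8 fragments each, at a −log10 q of 2.08, in Hnrnpul1, Sf3b2, Snrpn and Srsf12. The next away from the ends, at 7 fragments, lay in Hnrnpm, Prpf6 and Snrpn. Of the 51 untreated body summits 11 (21.6%) lay in peaks that overlapped an IL-4 peak, and of the 161 IL-4 ones 9 (5.59%) overlapped an untreated peak. In the bodies of all protein-coding genes these shares were 9.16% and 5.56%. No summit was listed for 6 of 68 members (8.82%, against 15.6% of all genes) at an end or in the body in either list, namely Hnrnpa1l2-ps2, Sf3a2, Snrpb2, Snrpg, Srsf1 and U2af1l4.

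**Figure D4:**
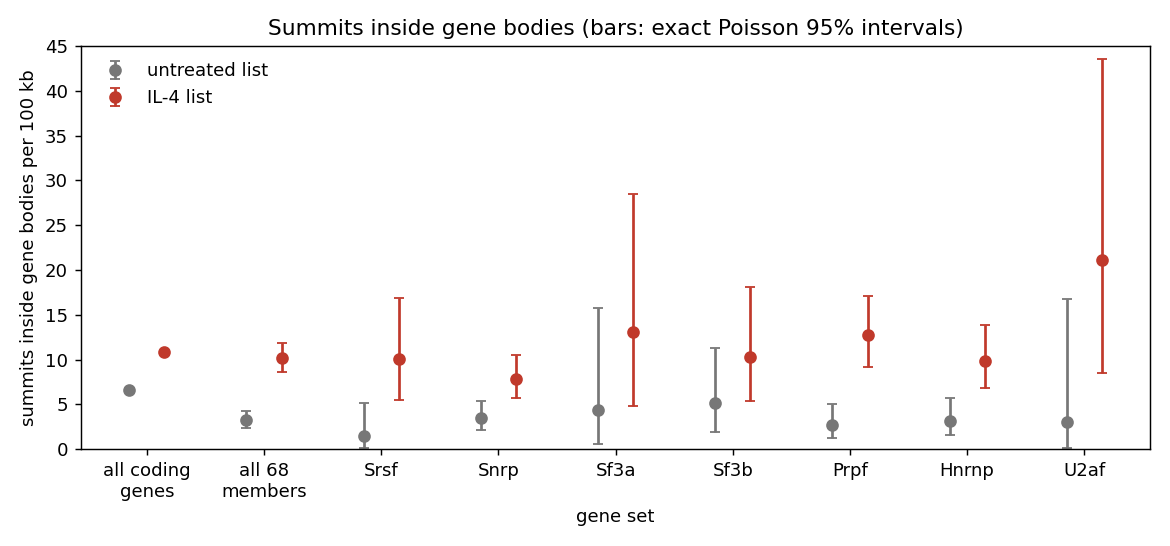
Summits inside gene bodies per 100 kb of gene (vertical axis, linear from 0) in the untreated (grey) and IL-4 (red) lists, for all protein-coding genes, all 68 members and each family. Summits near the gene ends are included. Bars are exact Poisson 95% intervals. The untreated value of the members, 3.21, lies below that of all genes, 6.57, and the IL-4 values, 10.1 and 10.8, lie close together.

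Other genes of splicing and related RNA processing, outside the 7 families, were counted the same way. The list holds helicases, kinases, LSm proteins, exon junction and RNA-binding factors. It also holds Smn1 and Gemin genes, the cap-binding Ncbp genes, and Pcf11 and Cpsf genes of 3′ end cleavage. The IL-4 peak counted for Gemin6 is the one also counted for Srsf7, so this list and the members are not fully separate. Of 96 measured, 72 (75.0%) had an IL-4 gene-end peak and 16 (16.7%) an untreated one, against 51.4% and 24.0% of all genes. The IL-4 list had 39 of 96 (40.6%) with q of at most 0.05, against 19.2% of all genes, and 7 of 96 passed a −log10 q of 5, against 2.77%. The strongest were Sart3, a recycling factor of the U4 and U6 snRNPs, with 15 fragments at a −log10 q of 9.38, Rnps1, an exon junction protein gene, with 15 at 9.29, and Luc7l2, of the U1 snRNP, with 13 at 7.84. All 3 were listed with IL-4 only.

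The promoters of the members were richer in some motifs than promoters of all genes. They also had a higher median GC (60.2%, against 57.0%) and more CpG pairs (median 25, against 14). The part of base composition in the motif shares was not tested. In the 300 bases from 250 before to 50 after a start, the ETS motif was found on either strand in 25 of 80 member promoters (31.3%), against 11.9% of all. The GC box was found in 50 of 80 (62.5%), against 47.0%, and the CCAAT box in 38 of 80 (47.5%), against 38.1%. Members with an IL-4 summit within 1 kb held the ETS motif in 12 of 51 promoters (23.5%), and members without in 13 of 29 (44.8%). Over all genes the order was the other way, 15.9% with a summit and 8.76% without. The STAT6 motif, TTC and GAA 4 bases apart, was found in 3 of 80 (3.75%), against 6.39% of all, and the STAT motif, with 3 bases between, in 8 of 80 (10%), against 7.78%. By family, ETS matches stood in 4 of 5 Sf3b, 3 of 3 Sf3a, 6 of 14 Srsf, 4 of 14 Snrp, 4 of 14 Prpf, 4 of 27 Hnrnp and 0 of 3 U2af promoters. CCAAT matches stood in 17 of 27 Hnrnp, 8 of 14 Prpf, 3 of 5 Sf3b, 2 of 3 U2af, 4 of 14 Srsf, 4 of 14 Snrp and 0 of 3 Sf3a promoters. Some members have several starts with overlapping windows, so these promoters are not independent.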

How the data were processed

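Each library has 1 narrowPeak file of peaks that the authors deposited, with fold enrichment (a ratio), −log10 p, −log10 q and a score per peak. Per the submitters' processing notes, the tools were DiffBind, MACS2 2.2.7.1 and Bowtie 0.12.8 and the build mm10, without role or order. How duplicates, fragment size and a control were handled is not given in the sources, and total reads were not used. The deposited score equalled 10 times −log10 p, decimals dropped, in 100% of entries.

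Fragments and local background were solved from fold = (fragments + 1)/(background + 1) and a Poisson upper tail. For 100% of entries a whole number gave the deposited −log10 p to within 0.01, and the solving was tested on simulated data. Entries with several summits, 203 untreated and 654 IL-4, kept only their summit of highest −log10 q. Peaks overlap where they share at least 1 bp. Gene ends came from the RefSeq gene table, and strand, starts and sequences from the RefSeq promoter table (GRCm38.p6), which matched 59 of 68 members. Tools were Python 3.11.15, scipy 1.17.1, statsmodels 0.14.6 (Wilson intervals) and matplotlib 3.10.9.

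With 1 library per group there is no test, and p and q values are the authors' caller's own for each peak. The members and lists were chosen with earlier results of these data known. Named by rule were members past a −log10 q of 5 or with peaks in both lists, the strongest of each family, the 5 strongest body summits per list, members without peaks and the 3 strongest other splicing genes. Further members were named after their values were seen. One result is not reported here. The alternatives were other windows, stricter thresholds, 4 fragments, equal list lengths, every deposited summit, summits inside the gene and any base of the peak.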

Additional observations from a re-analysis of the deposited data

How the results depend on the processing

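Counts of members are given for the IL-4 list, the untreated list and IL-4 only in that order, as 45, 10 and 39 in the report. Requiring −log10 q of 5 moved them by over 1.5 times, to 1, 0 and 1. At a q of at most 0.05 the first 2 moved to 28 and 2. The untreated count moved to 6 with a 500 bp window (8.82%, against 14.1% of all genes), 21 with a 3 kb window (30.9%, against 48.6%) and 5 with summits inside the gene only (7.35%, against 12.8%). The other settings were any base of the peak, at least 4 fragments, lists of equal length, and promoter table starts (added after the data were seen). With these and the 3 just named, the IL-4 count ranged from 30 (44.1%, against 31.8%) to 60 (88.2%, against 76.6%). The IL-4-only count ranged from 29 (42.6%, against 26.5%) to 42. With any base of the peak, 42 was 61.8%, against 37.5% of all genes. Body summits, 161 with IL-4 and 51 untreated, were 31 and 9 at a q of at most 0.05 and 3 and 0 when −log10 q had to reach 5. Over all genes they were 108263 and 65834, then 14405 and 9622, and then 414 and 70. The IL-4 number was 102 with at least 4 fragments (74632 over all genes) and 97 with lists of equal length (67007 over all genes). The ratio of IL-4 to untreated body summits was 1.90 with lists of equal length, against 1.02 for all genes. With summits inside the gene only, 6 of 11 Srsf and 6 of 20 Hnrnp genes had an IL-4 gene-end peak, against 31.8% of all genes. Equal lengths cut within ties of −log10 q, broken by a seeded draw. Apart from Hnrnpul2 and Hnrnph3, the strongest IL-4 gene-end peaks of members rest on 3 to 9 fragments, so absence from a list means only that no peak was listed. The densities without Snrpn were also added after the data were seen. No paired analysis was possible because each group has 1 library.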
